A study of Mus musculus with 4 samples.

Results

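The genes described here are those of glycolysis and of hypoxia-inducible metabolism in mouse embryonic stem (ES) cells and in cells kept without leukaemia inhibitory factor (LIF). They were chosen by name: 37 gene symbols were matched through their Ensembl identifiers to the deposited expression table, and all 37 were found among its 47633 genes. Of these members, 18 encode glycolytic enzymes, 4 encode sugar or lactate transporters, 4 encode kinases that set the flux into or out of glycolysis, 10 are other targets of the hypoxia-inducible factor (HIF), and 1 is the factor subunit Hif1a. All 37 were at 1 FPKM (fragments per kilobase of transcript, scaled to the number of mapped fragments) or more in every one of the 4 libraries, so the filter on low values removed none.

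RNA was sequenced from ES cells of strain 129S2/SvPas in 2 libraries (ES 1 and ES 2), from cells 2 days after LIF was removed in 1 library (the LIF-withdrawal library), and from cells 5 days after LIF was removed in 1 library labelled embryoid body (the EB library). The labels give the same strain and the same culture for all groups: cells on C57/BL6 embryonic fibroblasts stopped from dividing with mitomycin C, in DMEM with serum and, for ES cells, LIF. Feeder removal, the oxygen level of the cultures and the number of separate cultures behind the 2 ES libraries were not given in the sources used here. The libraries held total RNA, and each derived group had 1 library. Every p-value below therefore rests on the ES pair, which gives each gene 1 residual degree of freedom. The limma fit moderated that spread across all genes fitted. Each p-value also takes the lone library to vary as ES cells did.

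Glycolysis splits glucose into pyruvate through a chain of cytosolic enzymes and yields ATP without oxygen, and lactate dehydrogenase turns the pyruvate into lactate, which leaves the cell through monocarboxylate transporters. When oxygen is low, HIF-1 alpha escapes prolyl hydroxylation by the EGLN enzymes, escapes degradation through VHL, pairs with ARNT and binds the core motif ACGTG at its target genes. Those targets include most glycolytic enzymes as well as genes for blood vessel growth, collagen hydroxylation and mitophagy, and pluripotent cells are known for high glycolytic flux even where oxygen is plentiful.

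Promoter sequence was compared first between the glycolytic enzymes and the other HIF targets, and a few promoters are printed here to show what was counted. RefSeq gave start sites on GRCm38.p6 for 35 of the 37 members, the exceptions being Slc2a3 and Ndrg1. Each sequence is the 250 bases before the first listed start site, 5′ to 3′ on the strand of the gene, with capitals marking ACGTG or its reverse complement CACGT; overlapping matches were merged into 1 site. Slc2a1 (chr4:119108495-119108744, plus strand) and Ldha (chr7:46845554-46845803, plus strand) are shown as 2 members with the motif whose levels lay on opposite sides of the ES pair after LIF withdrawal, Bnip3 (chr7:138909507-138909756, minus strand) as a HIF target outside glycolysis, and Ldhb (chr6:142507958-142508207, minus strand), Aldoc (chr11:78322823-78323072, plus strand) and Pfkp (chr13:6648772-6649021, minus strand) as the isozyme genes whose levels differed most from ES cells in the EB library.
Slc2a1: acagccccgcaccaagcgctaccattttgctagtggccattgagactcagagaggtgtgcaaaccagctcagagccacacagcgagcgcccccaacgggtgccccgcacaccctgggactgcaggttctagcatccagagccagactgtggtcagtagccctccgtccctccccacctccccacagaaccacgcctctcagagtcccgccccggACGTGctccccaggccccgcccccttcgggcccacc
Ldha: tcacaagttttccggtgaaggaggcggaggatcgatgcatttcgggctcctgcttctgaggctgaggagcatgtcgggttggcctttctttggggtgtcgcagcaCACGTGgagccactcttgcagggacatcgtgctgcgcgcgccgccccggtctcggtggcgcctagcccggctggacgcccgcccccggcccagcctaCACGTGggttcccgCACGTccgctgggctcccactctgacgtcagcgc
Bnip3: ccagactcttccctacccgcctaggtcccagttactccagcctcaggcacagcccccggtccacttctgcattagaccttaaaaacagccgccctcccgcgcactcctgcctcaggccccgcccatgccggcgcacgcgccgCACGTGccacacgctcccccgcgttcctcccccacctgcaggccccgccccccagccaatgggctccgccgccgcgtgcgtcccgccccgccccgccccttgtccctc
Ldhb: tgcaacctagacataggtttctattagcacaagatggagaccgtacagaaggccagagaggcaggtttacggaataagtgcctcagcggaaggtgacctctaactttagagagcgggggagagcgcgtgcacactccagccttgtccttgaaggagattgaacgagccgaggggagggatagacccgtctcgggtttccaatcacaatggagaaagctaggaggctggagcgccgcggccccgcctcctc
Aldoc: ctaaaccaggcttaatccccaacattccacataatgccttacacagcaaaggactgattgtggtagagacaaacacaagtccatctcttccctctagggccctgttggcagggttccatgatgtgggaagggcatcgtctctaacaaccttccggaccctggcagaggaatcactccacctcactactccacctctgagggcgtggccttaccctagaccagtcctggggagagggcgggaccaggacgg
Pfkp: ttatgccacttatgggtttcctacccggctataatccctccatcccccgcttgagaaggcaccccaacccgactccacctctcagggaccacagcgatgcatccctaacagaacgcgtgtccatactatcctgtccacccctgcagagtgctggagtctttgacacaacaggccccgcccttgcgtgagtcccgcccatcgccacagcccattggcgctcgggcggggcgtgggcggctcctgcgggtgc
Slc2a1 and Bnip3 held 1 site each and Ldha held 3, while Ldhb, Aldoc and Pfkp held 0 in this window.

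Across all members, 7 of 9 other HIF targets held the motif in the 250 bases (77.8%), against 5 of 18 glycolytic enzymes (27.8%). All 3 matched transporters held it, as did 2 of 4 flux-setting kinases and Hif1a itself. The background was 16.5% of 27025 RefSeq promoters, and 22.1% of those whose genes were tested here. Counting every listed start site instead of the first raised the glycolytic enzymes to 7 of 18 and the other HIF targets to 8 of 9. A match describes letters in a window and not occupancy by HIF, which was not measured.

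Depth was estimated at 18.1 to 31.5 M fragments per library, lowest for LIF withdrawal; 3 fragments in a 1 kb gene model corresponded to 0.0954 to 0.166 FPKM (counting error only). All 10 pluripotency markers, among them Pou5f1, Nanog and Sox2, were at 1 FPKM or more in every library, with summed levels of 2277, 2282, 2354 and 2826 FPKM in ES 1, ES 2, LIF withdrawal and EB. Dppa5a made up a large part of these sums (561, 577, 805 and 1136 FPKM). After LIF withdrawal 7 of the 10 were below both ES libraries, among them Klf2 at 39.7, 36.2, 14.2 and 40.5 FPKM, and in EB 3 were: Pou5f1, Klf4 and Tdgf1 (394, 413, 377 and 269 FPKM). None of the 10 was called by limma in either comparison (4 and 7 were at unadjusted p under 0.05, against 37.2% and 27.7% of all genes). Markers of streak and mesoderm summed to 3.85 to 8.66 FPKM, of endoderm to 1.95 to 2.81 and of neural cells to 23.0 to 31.5. The EB library thus kept all of these pluripotency markers with low germ layer markers, and its label of embryoid body is used here as given. The 14 markers of feeder fibroblasts summed to 72.2, 71.6, 233 and 80.0 FPKM in the same order. After LIF withdrawal 5 of the 13 that could be tested were called higher by limma, as were 1147 of all 15676 genes tested. In EB 0 of the 13 were called, where 62 of all genes were. At unadjusted p under 0.05 in limma, 5 of the 13 were higher and 4 lower in EB, against 12.5% and 15.2% of all genes. In ES 2, 1 of the 14 fibroblast markers (Lum) was at 0. The 10 most abundant genes of all took 9.80% to 17.4% of the summed FPKM in the ES and EB libraries and 44.7% after LIF withdrawal. The median FPKM over all genes tested was not lower in that library.

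The 2 arms lay far apart in level in every library (see the plot of member levels). Glycolytic enzymes had medians of 107 and 123 FPKM in ES 1 and ES 2, 89.2 FPKM after LIF withdrawal and 121 FPKM in EB. The other HIF targets had medians of 4.86, 4.78, 5.34 and 4.83 FPKM, below the medians over all 15676 genes tested of 7.44, 7.29, 8.07 and 7.44. Between 9 and 10 of the 18 enzymes exceeded 100 FPKM in each library. Of the other HIF targets only Mif did, and 8 of 10 were under 10 FPKM in every library. The mean log2(FPKM + 1) of the enzymes exceeded that of the other targets by 3.20, 3.28, 3.27 and 3.38. The gap was thus of similar size in all 4 libraries.

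**Figure D1:**
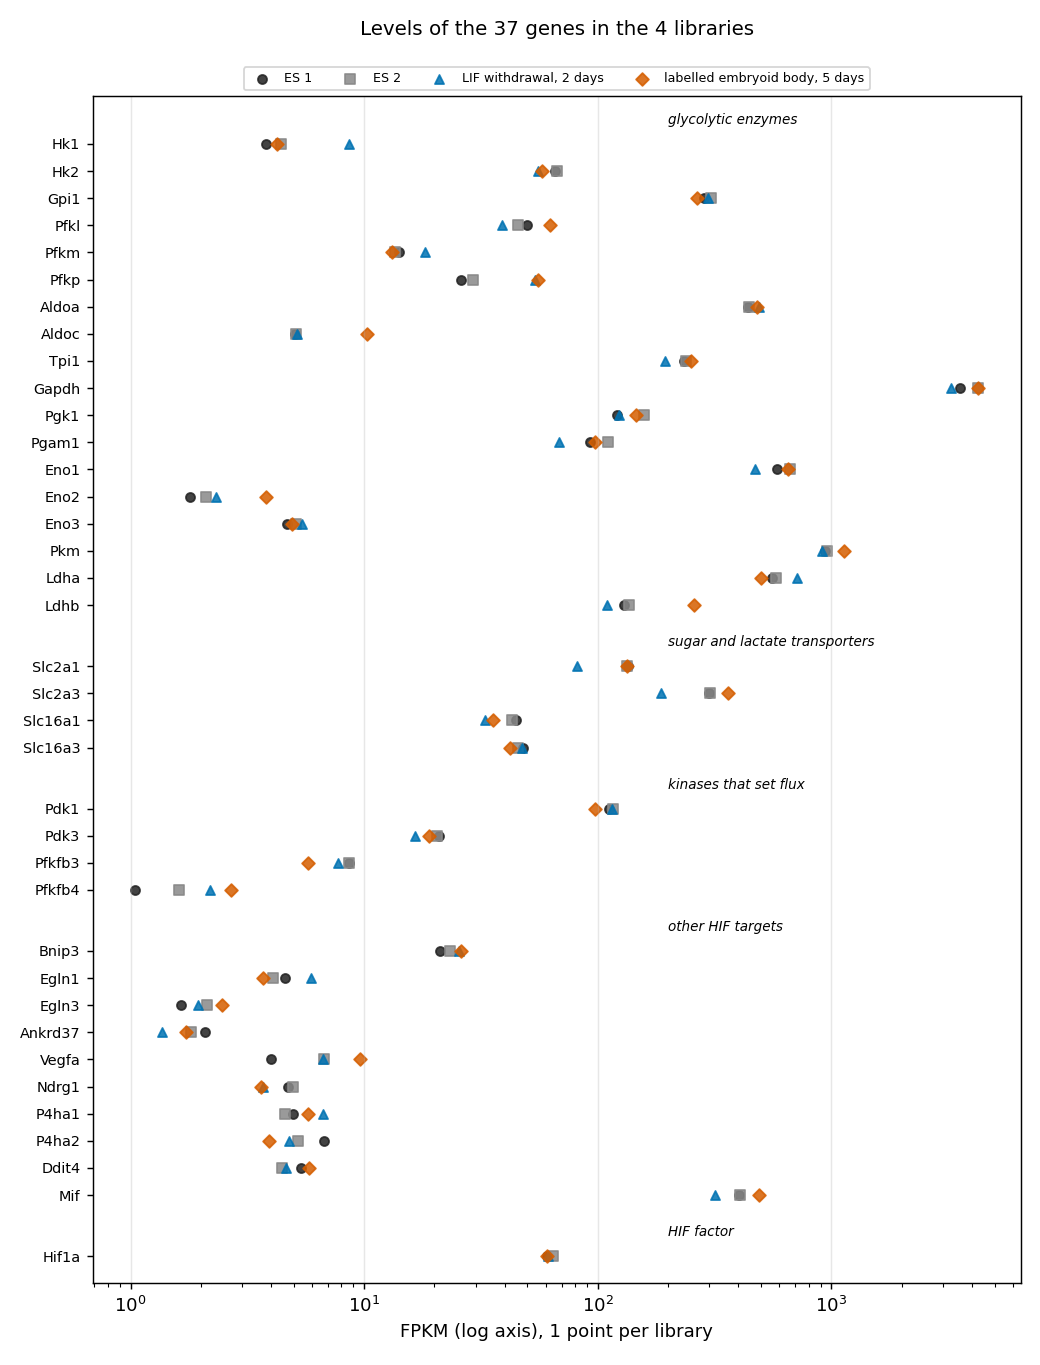
Levels of the 37 members in each of the 4 libraries, in FPKM on a log axis, grouped by role, with 1 point per library. Glycolytic enzymes reach up to 4262 FPKM and mostly sit above 10, while all other HIF targets except Mif and Bnip3 sit under 10 in every library.

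Changes were tested with limma on log2(FPKM + 1) across the 15676 genes that reached 1 FPKM in any library. A call needed both a change of at least 2-fold and an adjusted p (Benjamini-Hochberg, over all genes) under 0.05. No member was called in either comparison by limma. After LIF withdrawal 0 of 37 were called against 7.67% of all genes, and 13 of 37 were at unadjusted p under 0.05 (5 higher, 8 lower) against 37.2% of all genes (24.1% higher, 13.1% lower). In EB 0 of 37 were called against 0.396% of all genes, and 11 of 37 were at unadjusted p under 0.05 (6 higher, 5 lower) against 27.7% (12.5% higher, 15.2% lower). The member count was near the background in both comparisons. The 2 comparisons share their ES libraries, so their values are given side by side and no agreement between them is read.

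Without the 2-fold minimum, the adjusted p of limma passed for 2 members after LIF withdrawal, both of them lower, against 1.15% of all genes lower by that rule; none passed in EB, against 0.396% of all genes. These were the 2 glucose transporter genes. Slc2a1, which encodes the widely expressed transporter GLUT1 (chr4:119108711-119137983, plus strand, mm10), was at 134 and 133 FPKM in ES 1 and ES 2, at 81.4 after LIF withdrawal and at 134 in EB. The LIF-withdrawal library was below both ES libraries, by far more than the 0.902 FPKM SD of the pair (mean 134, n = 2), and EB lay between them. The log2 change was -0.71 (SE 0.02, limma adjusted p 0.0276) after LIF withdrawal, or 1.64-fold lower, and 0.00 (limma adjusted p 0.977) in EB. Predicted antisense genes overlap Slc2a1 on the other strand, and the use of strand in counting is not given in the sources used here.

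Slc2a3 encodes the high-affinity transporter GLUT3 (chr6:122727809-122801640, minus strand). It was at 301 and 303 FPKM in ES 1 and ES 2, at 187 after LIF withdrawal and at 360.1 in EB. LIF withdrawal was below and EB above both ES libraries. The log2 change was -0.69 (SE 0.03, limma adjusted p 0.0409) after LIF withdrawal, 1.61-fold lower, and 0.25 (SE 0.03, adjusted p 0.144) in EB. The adjusted p for LIF withdrawal was 0.0529 with a pseudocount of 0.1 and 0.0556 with only genes at 5 FPKM or more, and ranged from 0.0225 to 0.0556 over the alternatives that gave one. Together the 2 genes summed to 435, 436, 268 and 494 FPKM, and Slc2a1 supplied 30.9%, 30.5%, 30.3% and 27.1% of the sum, so after LIF withdrawal both were lower by nearly the same proportion.

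The lactate transporters moved less. Slc16a1, which encodes the monocarboxylate transporter MCT1, was at 44.5, 42.9, 32.8 and 35.7 FPKM in ES 1, ES 2, LIF withdrawal and EB, below both ES libraries in both derived ones (log2 change -0.40, limma adjusted p 0.0786, and -0.28, adjusted p 0.150). Slc16a3, which encodes the lactate exporter MCT4, was at 47.8, 45.6, 47.5 and 42.1 FPKM. LIF withdrawal lay between the ES libraries, and EB lay just below them. Across the 4 transporter genes the median log2 change was -0.54 after LIF withdrawal and -0.07 in EB, where the median of all genes tested was 0.04 and -0.01.

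At the head of the pathway, hexokinase traps glucose inside the cell as its phosphate. Hk2, the hexokinase that predominated here, was at 65.5, 66.7, 55.3 and 57.6 FPKM, below the ES pair in both derived libraries by a log2 change of -0.25 and -0.20 (limma adjusted p 0.0794 and 0.148). Hk1, the isozyme of most adult tissues (chr10:62268855-62379908, minus strand), was at 3.797, 4.402, 8.65 and 4.22 FPKM. The LIF-withdrawal library stood above both ES libraries, 2.11-fold over their mean of 4.10 ± 0.427 FPKM (SD, n = 2), and 0.92 above it on the log2 scale (SE 0.12, limma adjusted p 0.0972), and EB lay between them. The antisense gene Hk1os overlaps Hk1 on the other strand. The share of Hk1 in the hexokinase sum was 5.48%, 6.19%, 13.5% and 6.82%. Gpi1, which converts glucose 6-phosphate to fructose 6-phosphate, was at 285, 305, 298 and 265 FPKM: LIF withdrawal lay within the ES pair and EB below it.

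Phosphofructokinase, the committed step of glycolysis, has 3 isozyme genes, and they did not move together. Pfkp, named for platelets (chr13:6579768-6648777, minus strand), was at 26.1, 29.4, 53.7 and 55.8 FPKM. Both derived libraries were above both ES libraries, 1.94-fold and 2.01-fold over the ES mean of 27.7 ± 2.32 FPKM (SD, n = 2). The log2 changes were 0.93 (SE 0.11, limma adjusted p 0.0891) and 0.98 (SE 0.11, adjusted p 0.143), so neither passed. The coding gene Pitrm1 overlaps Pfkp on the other strand.

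Pfkl, the liver form, was at 49.7, 45.4, 38.9 and 62.2 FPKM, below the ES pair after LIF withdrawal (log2 -0.28) and above it in EB (log2 0.38). Pfkm, the muscle form, was at 14.1, 13.6, 18.2 and 13.1 FPKM, above the pair after LIF withdrawal (log2 0.37) and just below it in EB. None of these 4 differences passed the adjusted p of limma. Pfkl supplied the largest share of the summed phosphofructokinase level in ES 1, ES 2 and EB (55.3%, 51.4% and 47.5%), and Pfkp did after LIF withdrawal (48.4%). The sum itself was 89.9, 88.4, 111 and 131 FPKM.

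Aldolase splits the 6-carbon sugar. Aldoa, its main form, was at 439.6, 445, 491 and 482 FPKM, above the ES pair in both derived libraries by log2 changes of 0.15 and 0.12. Aldoc, the brain form (chr11:78322968-78327781, plus strand), was at 5.07, 5.13, 5.14 and 10.3 FPKM, level in 3 libraries and 2.01-fold over the ES mean in EB alone (0.89 on the log2 scale, SE 0.05, limma adjusted p 0.139). Aldoc was 2.09% of the aldolase sum in EB and 1.04% to 1.14% elsewhere. Tpi1, which interconverts the 3-carbon products, was at 234, 238, 195 and 251 FPKM, below the ES pair after LIF withdrawal and above it in EB (log2 -0.28 and 0.09).

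The 4 enzyme genes with the largest differences between the ES libraries all belong to the lower chain, and they are described as a group chosen after their values were seen. In each of them ES 2 and EB were above ES 1 and LIF withdrawal, as was also so for Tpi1, Pkm and Ldhb among the enzymes and for Slc2a3, Egln3, Vegfa and Mif. Gapdh, which makes NADH and is a common reference gene, was at 3571, 4245, 3267 and 4262 FPKM and ranked among the 12 most abundant genes in each library. Pgk1, which makes the first ATP, was at 121, 158, 123 and 146 FPKM. Pgam1, the mutase of the next step, was at 92.7, 110.4, 68.3 and 97.0 FPKM.

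Eno1, the enolase of most tissues, was at 586, 663, 474 and 653 FPKM. In these 4 genes the ES libraries differed from each other by log2 values of -0.18 to -0.37 (ES 1 minus ES 2), where the median absolute difference was 0.10 over the members and 0.08 over all genes. The changes after LIF withdrawal were -0.25, -0.16, -0.56 and -0.40 for Gapdh, Pgk1, Pgam1 and Eno1, with limma adjusted p values of 0.640, 0.674, 0.185 and 0.203. Gapdh therefore varied between ES libraries by about as much as it differed from ES cells after LIF withdrawal.

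The minor enolases and pyruvate kinase complete this stretch. Eno2, the neuronal enolase, was at 1.802, 2.103, 2.32 and 3.80 FPKM, above both ES libraries in both derived ones and 1.95-fold over the ES mean in EB (log2 0.70, SE 0.11, limma adjusted p 0.154). Eno3, the muscle enolase, was at 4.66, 5.11, 5.44 and 4.90 FPKM, with EB inside the ES pair. Eno1 made up 98.4% to 98.9% of the enolase sum in every library. Pkm, which makes pyruvate, was at 943, 959, 912 and 1129 FPKM, slightly below the ES pair after LIF withdrawal (log2 -0.06) and above it in EB (log2 0.25, limma adjusted p 0.244).

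The 2 isozymes of lactate dehydrogenase lay on opposite sides of the ES pair in both derived libraries. Ldhb, whose subunit favours turning lactate back to pyruvate (chr6:142490249-142507957, minus strand), was at 130.2, 136, 110.1 and 258 FPKM. LIF withdrawal was below and EB above both ES libraries; EB was 1.94-fold over the ES mean of 133 ± 3.90 FPKM (SD, n = 2), and 0.95 above it on the log2 scale (SE 0.04, limma adjusted p 0.139). Ldha, whose subunit favours making lactate (chr7:46841475-46855627, plus strand), was at 555, 578, 712 and 503 FPKM and ran the other way, 1.26-fold above the ES mean after LIF withdrawal (log2 0.33, limma adjusted p 0.125) and below the pair in EB (log2 -0.17, adjusted p 0.273). The share of Ldhb was therefore 19.0% in both ES libraries, 13.4% after LIF withdrawal and 33.9% in EB, while the summed level of both genes stayed between 685 and 822 FPKM (see the plot of isozyme shares).

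**Figure D2:**
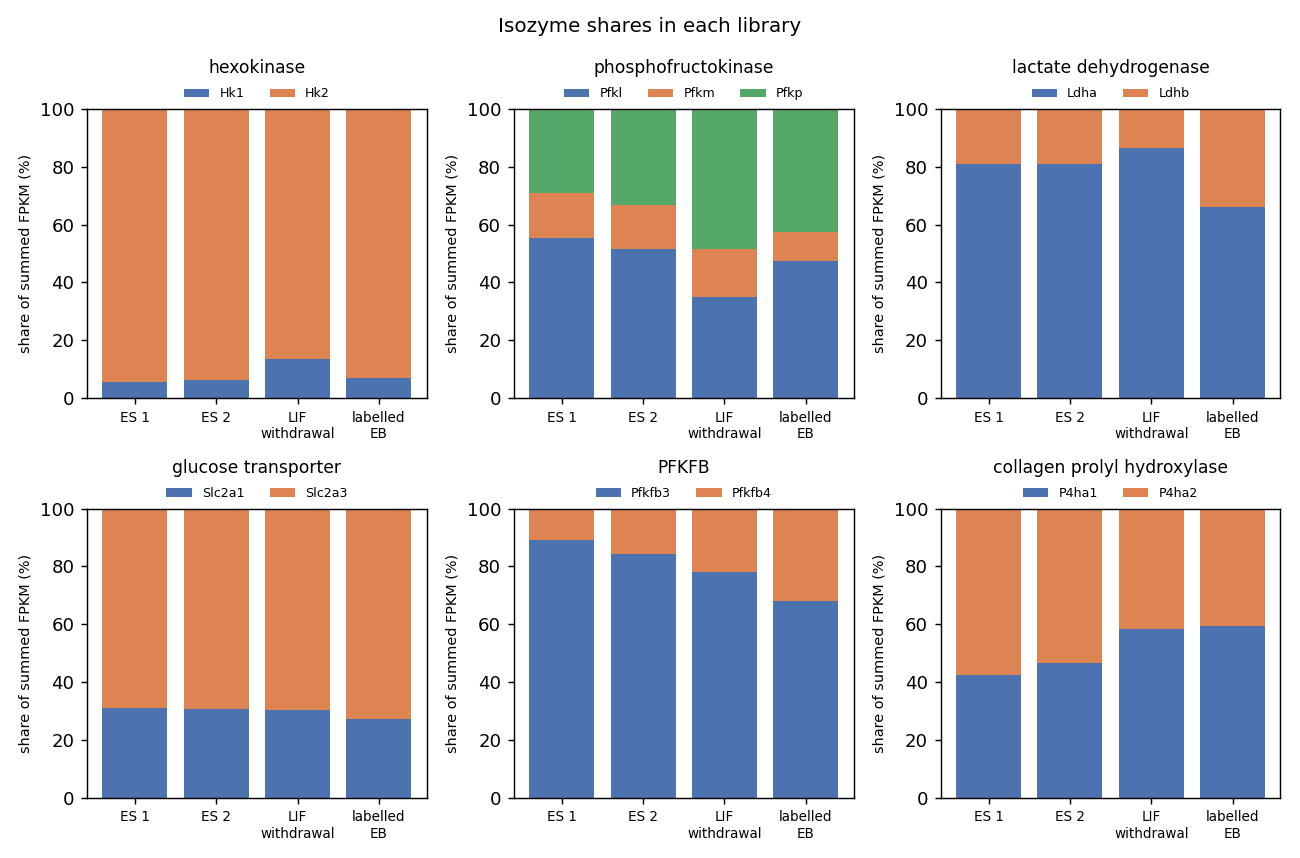
Share of each isozyme gene in the summed FPKM of its family, in percent, as stacked bars by library for 6 families. Ldhb takes 33.9% of the lactate dehydrogenase sum in EB against 19.0% in both ES libraries, and Pfkp takes 48.4% of the phosphofructokinase sum after LIF withdrawal against 29.0% and 33.2% in ES cells.

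None of the 4 kinases that steer flux passed the adjusted p of limma over all genes. Pdk1, which blocks pyruvate entry to mitochondria by phosphorylating pyruvate dehydrogenase and is a known HIF target, was at 112, 116, 115 and 97.6 FPKM, inside the ES pair after LIF withdrawal and below it in EB. Pdk3, a related kinase, was at 20.9, 20.6, 16.4 and 19.0 FPKM, below the ES pair in both derived libraries (log2 -0.32 and -0.12). Pfkfb3, whose product drives phosphofructokinase, was at 8.63, 8.60, 7.72 and 5.74 FPKM, below both ES libraries in both derived ones and lowest in EB (log2 -0.51, SE 0.05, limma adjusted p 0.139).

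Pfkfb4, a second enzyme of that kind, was at 1.05, 1.61, 2.18 and 2.70 FPKM and held 10.8%, 15.8%, 22.0% and 32.0% of the sum with Pfkfb3. Both derived libraries were above both ES libraries, EB 2.03-fold over the ES mean, but the ES pair itself spread by 0.400 FPKM (SD, n = 2), and the log2 changes of 0.46 and 0.68 had limma adjusted p values of 0.316 and 0.261.

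Hif1a itself was at 60.6, 64.6, 61.2 and 60.5 FPKM, with LIF withdrawal inside the ES pair and EB just below its lower member (log2 changes -0.03 and -0.05). These are transcript levels, and HIF-1 alpha is controlled mainly through its protein, which was not measured. Its negative regulators among the members are the prolyl hydroxylases. Egln1, the main oxygen sensor, was at 4.57, 4.06, 5.93 and 3.70 FPKM, above the ES pair after LIF withdrawal and below it in EB. Egln3, a HIF-inducible hydroxylase, was at 1.65, 2.13, 1.94 and 2.46 FPKM.

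The remaining targets outside glycolysis were low and spread around the ES pair. Vegfa, the blood vessel growth factor, was at 3.999, 6.75, 6.66 and 9.61 FPKM. EB was highest, 1.79-fold over the ES mean of 5.37 ± 1.94 FPKM (SD, n = 2). By FPKM + 1, however, Vegfa was also the only member that differed by 1.5-fold between the ES libraries. Its log2 change of 0.77 in EB had an SE of 0.41 (limma adjusted p 0.384). Ndrg1, a stress-responsive gene, was at 4.74, 4.97, 3.70 and 3.63 FPKM, below the ES pair in both derived libraries by log2 -0.32 and -0.34. Ddit4, an inhibitor of mTORC1 signalling, was at 5.39, 4.44, 4.62 and 5.82 FPKM, with LIF withdrawal inside the ES pair.

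Bnip3, a mitophagy receptor, was at 21.1, 23.4, 25.4 and 26.00 FPKM, above the pair in both derived libraries. The collagen prolyl hydroxylase genes diverged: P4ha1 was at 4.97, 4.59, 6.66 and 5.75 FPKM, above the ES pair in both, and P4ha2 at 6.76, 5.23, 4.75 and 3.90 FPKM, below it in both. P4ha1 made up 42.4% and 46.7% of their sum in ES cells and 58.4% and 59.6% in the derived libraries. Ankrd37, a small ankyrin-repeat gene, was at 2.08, 1.82, 1.36 and 1.73 FPKM, below the pair in both.

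Mif, a cytokine gene, stood apart from the other targets in level, at 404, 405, 318 and 491 FPKM. The ES libraries were almost equal, LIF withdrawal was below them (log2 -0.35, SE 0.04, limma adjusted p 0.0835) and EB above (log2 0.28, SE 0.04, adjusted p 0.148).

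The fit was also made on narrower sets of genes. In the strand-clear set (6808 long coding or non-coding genes with no gene on the opposite strand, holding 22 members) 0 members met the full call, against 3.04% of the set after LIF withdrawal and 2.31% in EB. By adjusted p of limma alone, chosen after seeing the data, 3 members were lower after LIF withdrawal: Slc2a3, Slc16a1 and Pdk3 (adjusted p 0.0225, 0.0341 and 0.0459; 9.28% of the set was lower). In EB 3 were higher by that rule: Ldhb, Aldoc and Eno2 (limma adjusted p 0.0256, 0.0289 and 0.0460; 6.52% of the set was higher). Slc2a1, Hk1 and Pfkp lie outside that set. Among protein-coding genes 0 members met the full call, against 4.55% and 0.558%; Hk1 and Pfkp were higher after LIF withdrawal by limma adjusted p alone (0.0406 and 0.0350; 11.7% of these genes were) and Slc2a1, Slc2a3 and Slc16a1 lower (5.40% were).

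Set against each other as groups, the 2 arms overlapped in their changes (see the plot of changes by role). After LIF withdrawal the 18 enzymes had a median log2 change of -0.03, with 8 above both ES libraries, 8 below both and 2 within the pair. The 10 other HIF targets had a median of -0.02 (range -0.35 to 0.41), with 3 above, 4 below and 3 within. Over all members 12 of 37 lay above and 17 below both ES libraries, where 48.4% and 36.6% of all genes did. By FPKM + 1, 2 of the enzymes (Hk1 and Pfkp) were at least 1.5-fold above both ES libraries. None of the other HIF targets were at least 1.5-fold from both. Among all genes 14.1% were that much higher and 3.32% that much lower.

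In EB the enzymes had a median log2 change of 0.08, with 9 above, 4 below and 5 within the ES pair. The other HIF targets had a median of 0.21 (range -0.50 to 0.77), with 6 above and 4 below. Over all members 17 of 37 lay above and 14 below both ES libraries, where 37.6% and 42.9% of all genes did. By FPKM + 1, Pfkp, Aldoc, Ldhb and Eno2 were at least 1.5-fold above both ES libraries, as were 4.77% of all genes. On that scale 0 members were that much below, where 3.35% were. Again 0 of the other HIF targets were past 1.5-fold. None of these 4 was the most abundant isozyme of its family in ES cells, and none of the steps with 1 member (Gpi1, Tpi1, Gapdh, Pgk1, Pgam1 and Pkm) differed by 1.5-fold from both ES libraries in EB. The direct difference between the arms was not tested, because genes are not replicates.

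**Figure D3:**
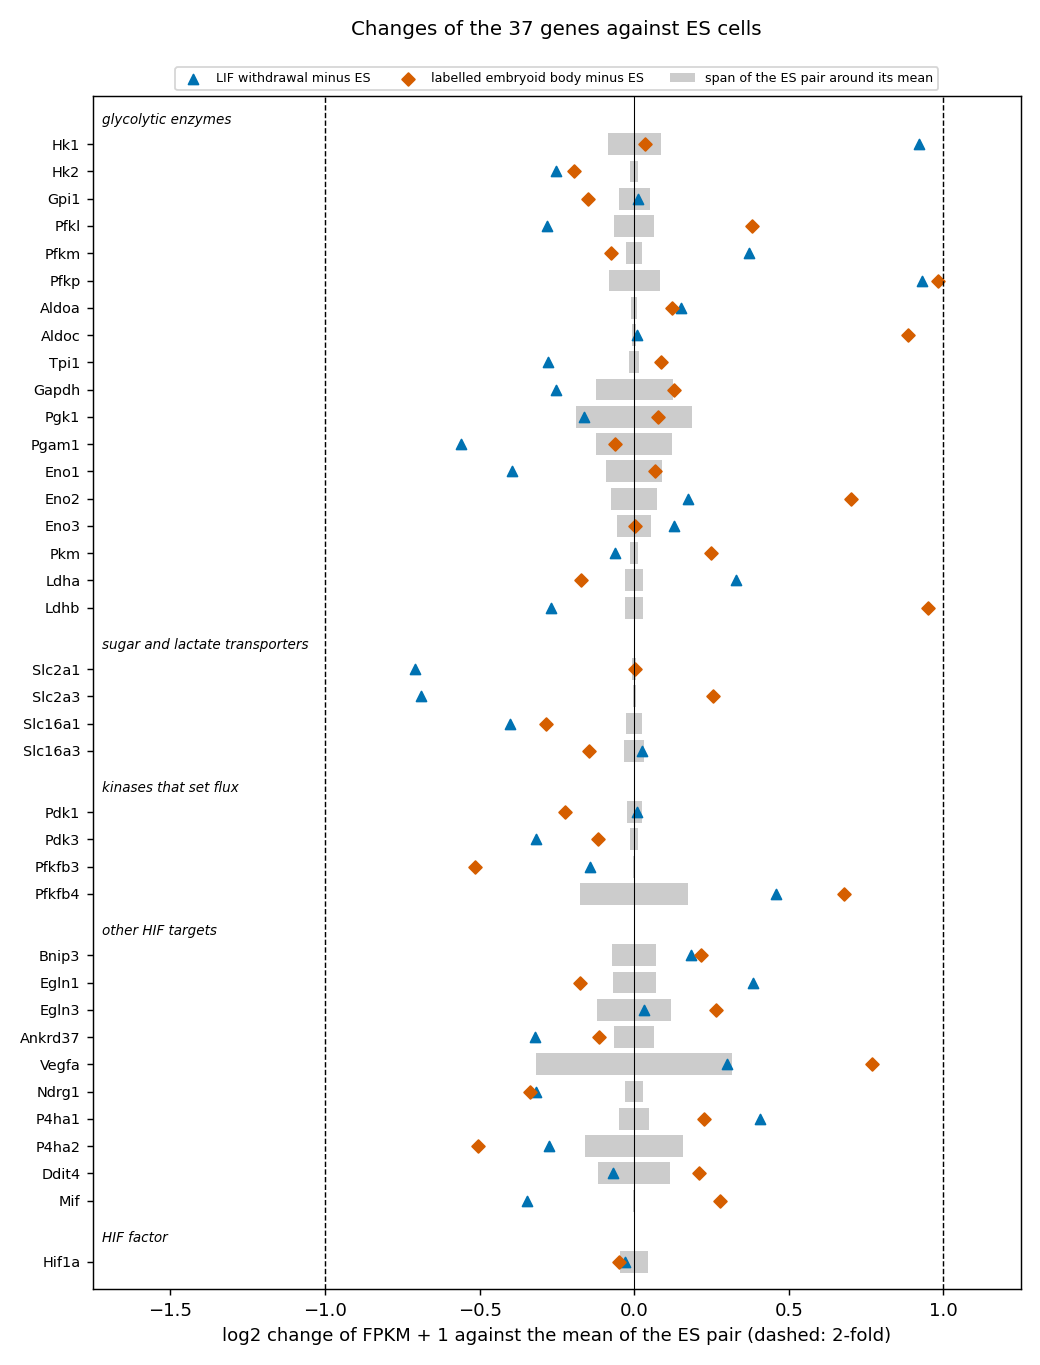
Log2 change of each member against the mean of the ES pair on the log2(FPKM + 1) scale, for LIF withdrawal and EB, grouped by role; grey bars span the ES pair around its mean and dashed lines mark 2-fold. Slc2a1 and Slc2a3 lie at -0.71 and -0.69 after LIF withdrawal, and Pfkp, Ldhb and Aldoc lie at 0.98, 0.95 and 0.89 in EB.

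Summed over the 18 enzymes, glycolytic transcript was 7127, 8010, 6837 and 8257 FPKM, or 1.57%, 1.70%, 1.49% and 1.82% of the protein-coding sum. Gapdh made up much of this. Without it the sum was 3556, 3765, 3570 and 3995 FPKM, or 0.783%, 0.799%, 0.779% and 0.883%, with LIF withdrawal inside the ES pair in FPKM.

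The derived libraries were also set directly against each other, with 1 library in each and so no test. By FPKM + 1, EB was at least 2-fold above LIF withdrawal for 1 member, Ldhb (log2 1.22), and at least 2-fold below for 0. Of all genes, 4.76% and 10.1% were. By 1.5-fold on that scale, Ldhb, Slc2a3, Aldoc, Slc2a1, Pfkl and Mif were higher and Hk1 was lower, where 9.87% and 17.4% of all genes were. By FPKM alone, Ldhb was 2.34-fold, Aldoc 2.00-fold, Slc2a3 1.93-fold and Slc2a1 1.65-fold higher in EB. Hk1 in EB was at 0.488 of its LIF-withdrawal level. Across the members 23 were higher and 14 lower, with a median log2 difference of 0.20 where all genes had -0.08. The enzymes had a median of 0.27 and the other HIF targets one of 0.12.

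Genes of the same pathways that are not members gave context. Of 11 genes of the HIF machinery (among them Arnt, Epas1, Vhl and the elongin genes) 0 were called in either comparison by limma, with 5 and 1 at unadjusted p under 0.05. None of 12 genes for pyruvate entry to mitochondria, 7 pentose phosphate genes, 3 tested of 6 gluconeogenesis genes and 8 tested of 18 further glycolytic or entry genes were called either. At unadjusted p under 0.05 in limma they numbered 3, 1, 0 and 2 after LIF withdrawal and 5, 2, 1 and 1 in EB. Of all genes tested, 37.2% and 27.7% were at that level after LIF withdrawal and in EB.

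Among 21 further hypoxia-inducible genes, 3 were called higher and 0 lower after LIF withdrawal, as were 1147 and 56 of all 15676 genes tested. Those called higher included Lox (a collagen crosslinker) and Plin2 (a lipid droplet coat). At unadjusted p under 0.05 in limma, 10 were higher and 4 lower, against 24.1% and 13.1% of all genes. Of the 21, 12 lay above both ES libraries and 7 below, where 48.4% and 36.6% of all genes did. The list's median log2 change was 0.30. Lox was at 12.8, 12.9, 40.7 and 1.201 FPKM (log2 change 1.59 after LIF withdrawal, limma adjusted p 0.0201; -2.66 in EB, adjusted p 0.0904). Plin2 was at 12.3, 11.7, 26.4 and 13.3 FPKM (log2 change 1.08 after LIF withdrawal, limma adjusted p 0.0455). In EB 0 of the 21 were called by limma (8 at unadjusted p under 0.05, against 27.7% of all genes), and the list's median was -0.01.

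These rises after LIF withdrawal, and those values of Hk1, P4ha1 and Pfkp above the ES pair, stood beside the higher feeder fibroblast sum in that library, and the part of other cells in them was not tested. Pfkp was as high in EB, where the fibroblast sum was 80.0 FPKM. That sum held more Dcn and less S100a4 than the LIF-withdrawal one (11.1 and 8.64 FPKM in EB, 6.68 and 73.2 after LIF withdrawal). The EB sum hides opposite moves. By FPKM + 1, 5 of 13 fibroblast markers tested were at least 2-fold above both ES libraries in EB, Dcn and Col6a3 among them, and 0 that much below. After LIF withdrawal these counts were 7 and 0. Of all 15676 genes tested, 256 and 115 were in EB, and 1386 and 131 after LIF withdrawal. In bulk RNA, fewer cells of a type and less RNA per cell cannot be told apart.

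Glycolytic genes have many processed pseudogenes, to which reads may be assigned. Gene models at least 85% identical to a member over at least 200 bases and 50% of their length numbered 302 for 13 members, of which 295 were pseudogenes and 249 were copies of Gapdh. The Gapdh copies summed to 95.6, 110.3, 114 and 113 FPKM beside 3267 to 4262 for Gapdh itself. This sum hides copies that were high in ES 2 and LIF withdrawal, the largest copies in those libraries. Gm11953 was at 2.07, 28.8, 24.0 and 2.86 FPKM in ES 1, ES 2, LIF withdrawal and EB. Gm3534 was at 2.34, 25.3, 22.0 and 1.97 FPKM, and Gm6498 at 1.43, 25.3, 22.2 and 1.66. Eno1 had the largest copy level of a few models (89.0, 103, 76.8 and 101 FPKM, nearly all from Eno1b), so part of the Eno1 reads cannot be placed with certainty. Of the 68 copies at 1 FPKM or more in a library, 45 were higher in both ES 1 and EB than in both ES 2 and LIF withdrawal (see the plot of near-copy levels). Gapdh, Pgk1, Pgam1 and Eno1 themselves had ES 2 in place of ES 1 on the high side. Many copies reached 1 FPKM only in the libraries where they were high, and the share over all genes was not taken. The count of copies is therefore not read as a trait of them. With the copies added back by length, the difference between the ES libraries stayed at -0.25 for Gapdh, went from -0.25 to -0.22 for Pgam1 and stayed at -0.18 for Eno1.

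**Figure D4:**
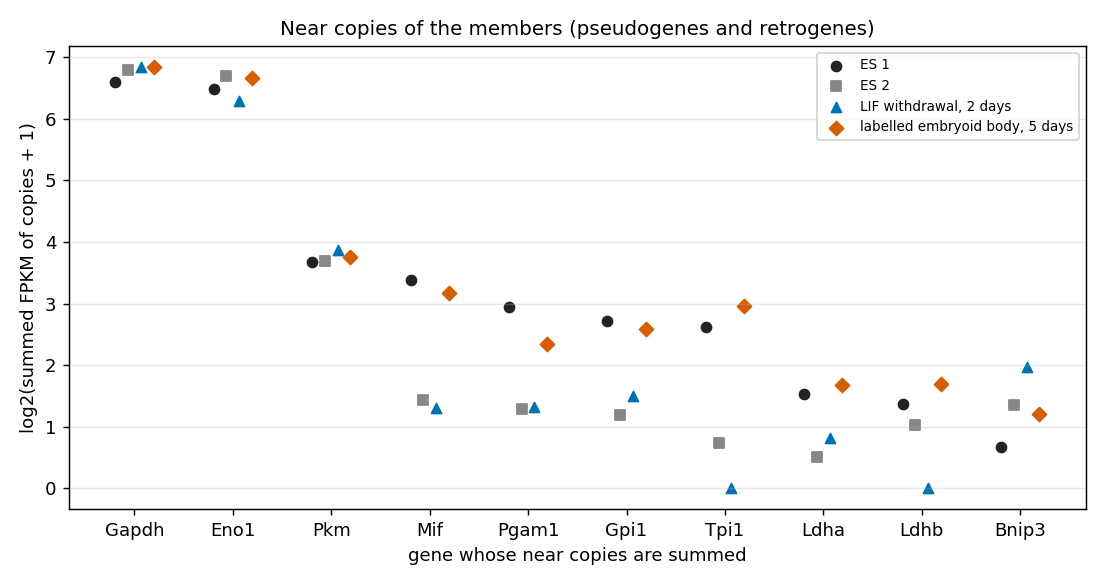
Summed FPKM of the near-copy gene models of each member whose copies reached 1 FPKM, as log2(sum + 1), with 1 point per library. The copies of Tpi1 stand at 5.16, 0.660, 0 and 6.77 FPKM and those of Mif at 9.44, 1.71, 1.45 and 8.03 in ES 1, ES 2, LIF withdrawal and EB. ES 1 and EB are the high libraries for these 2 members. The largest sums differ: copies of Gapdh stand at 95.6, 110, 114 and 113 FPKM, lowest in ES 1. Those of Eno1 stand at 89.0, 103, 76.8 and 101 FPKM, highest in ES 2.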

How the data were processed

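Per the labels, total RNA was sequenced from 2 ES libraries, 1 LIF-withdrawal library and 1 EB library. The values are the FPKM of 47633 genes that the authors deposited. The tools named per the submitters' processing notes are Trimmomatic 0.36, STAR and Cufflinks, with build mm10; what each did, the annotation and any strand setting were not given in the sources used here. Depth was estimated by reading the most common low FPKM times exon length as 1 fragment.

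The 15676 genes that reached 1 FPKM in any library were fitted with limma 3.58.1 in R 4.3.3 on log2(FPKM + 1), with all 4 libraries in 1 model and a trend on mean level. Such changes understate those of low genes. P-values were adjusted by the Benjamini-Hochberg method over all genes fitted, and the steps were tested on simulated data. Positions and gene types came from GENCODE mouse release 21 (47219 identifiers matched, 414 did not). A strand-clear set (6808 genes) held protein-coding and long non-coding genes of 1000 exonic nt or more with no gene body on the opposite strand. Near copies were found with blastn 2.17.0. Tables and plots used Python 3.11.15, numpy 2.4.6, pandas 2.3.3 and matplotlib 3.10.9.

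The members and all lists were chosen with earlier results of these data known. All members are named. Of the other lists, some of the genes called by limma or past 2-fold from both ES libraries are named. A few others were named after their values were seen. The lists were HIF machinery, further hypoxia-inducible genes, other glycolytic and entry genes, pyruvate entry, pentose phosphate, gluconeogenesis, and markers of feeder, pluripotent, streak, endoderm and neural cells. Alternatives were 2 other pseudocounts, 2 other filters, 2 scalings, 2 gene sets, a 1.5-fold minimum, a fit without the trend and each ES library left out. Added after seeing the data were adjusted p with no minimum change, also for the strand-clear set, and near copies summed with their member. The P-values measure only the spread between the 2 ES samples, which may be technical. A further result is not reported here.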

Additional observations from a re-analysis of the deposited data

Results flagged for a closer look

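Of the 37 members, 10 lay on opposite sides of both ES libraries in the 2 derived libraries. The share of all genes that did so is not given here, so the count is not read as a trait of the members. Of all genes, 48.4% lay above and 36.6% below both ES libraries after LIF withdrawal, and 37.6% and 42.9% in EB. The difference between the derived groups was not tested, since each has 1 library, and both are set against the same ES pair. The log2 change after LIF withdrawal and in EB was -0.27 and 0.95 for Ldhb, -0.69 and 0.25 for Slc2a3, -0.28 and 0.38 for Pfkl, -0.35 and 0.28 for Mif, -0.25 and 0.13 for Gapdh, -0.28 and 0.088 for Tpi1, and -0.061 and 0.25 for Pkm. In the other direction it was 0.33 and -0.17 for Ldha, 0.37 and -0.073 for Pfkm, and 0.39 and -0.18 for Egln1. For Gapdh the ES libraries themselves differed by 0.25.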

How the results depend on the processing

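No member passed both parts of the call in either comparison with ES cells under the other pseudocounts, filters, scalings, gene sets or the fit without a trend. With a 1.5-fold minimum on FPKM + 1 and no test, 2 were higher and 2 lower after LIF withdrawal and 4 higher in EB. With adjusted p alone, limma passed 2 lower after LIF withdrawal and, in the strand-clear set, 3 lower there and 3 higher in EB. Leaving out an ES library leaves no residual degrees of freedom, so the 2-fold count then has no test. It ran from 0 to 2 higher and 0 to 0 lower after LIF withdrawal (2 without ES 2: Hk1 and Pfkp) and from 0 to 2 higher in EB (without ES 2: Pfkp and Vegfa). EB against LIF withdrawal gave 2 members past 2-fold higher under both scalings and 1 lower (Hk1) with a pseudocount of 0.1.

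The enzymes' median change was -0.11 after LIF withdrawal and 0.16 in EB for strand-clear genes, and -0.0084 to 0.14 in EB with an ES library left out. The other HIF targets' median after LIF withdrawal was 0.19 for genes at 5 FPKM or more and 0.17 for strand-clear genes, so its sign rests on which genes enter.

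The sign of a change turned in members that passed no test in that comparison. With median-of-ratios scaling the change after LIF withdrawal was -0.016, -0.017, -0.0043 and -0.019 for Gpi1, Aldoc, Slc16a3 and Pdk1. With upper-quartile scaling the change after LIF withdrawal was -0.010, -0.012 and -0.013 for Gpi1, Aldoc and Pdk1. With either ES library left out, the change after LIF withdrawal ran from -0.036 to 0.064 for Gpi1, -0.35 to 0.024 for Pgk1, -0.0076 to 0.058 for Slc16a3, -0.013 to 0.035 for Pdk1, -0.090 to 0.15 for Egln3, -0.016 to 0.62 for Vegfa, -0.18 to 0.047 for Ddit4 and -0.075 to 0.015 for Hif1a. With either ES library left out, the change in EB ran from -0.050 to 0.12 for Hk1, -0.11 to 0.26 for Pgk1, -0.19 to 0.063 for Pgam1, -0.023 to 0.16 for Eno1, -0.052 to 0.059 for Eno3 and -0.0040 to 0.0097 for Slc2a1.

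No paired analysis was possible because the derived groups have 1 library each and share only 1 replicate number with ES cells. Depth was estimated rather than given, and the cause of these differences was not tested.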
